A study of Calluna vulgaris with 2 samples.

Results

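Histones and an E2F-like factor were followed by their cDNA reads in young flowers of common heather (Calluna vulgaris). The group consists of 7 contigs of the 12058 contigs in the authors' assembly. Of these, 6 are annotated as histones (histone 2, H3, H1 and 3 contigs of H4 or H4-like) and 1 as an E2F-like transcription factor, E2FE-like. The contigs were taken by number from the study's list of differentially expressed contigs, which was chosen on the read numbers of these same libraries. Their difference between the libraries is therefore a description and was not tested. The bud library came from ‘Maria’, a diplocalyx bud bloomer whose flowers stay closed, lack stamens and carry sepals in place of petals. The wt library came from the genotype F1, an offspring of ‘Maria’ and ‘Boskoop’ with wild type flowers. Both genotypes stood in the greenhouse in winter and in the field in frost free periods. Each flower type had 1 library and no replicate, so the spread between plants was not measured, and the sources used here do not say how many plants went into a library.

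Histones package DNA in the nucleus. H2A, H2B, H3 and H4 form the core of the nucleosome, around which DNA is wound, and H1 binds the linker DNA between cores. Cells make most of their core histones while they replicate their DNA, so histone transcripts are used as a sign of dividing tissue, and in plants these transcripts carry a poly(A) tail. E2F factors bind the promoters of genes for DNA replication. In Arabidopsis, E2FE (also called DEL1) is an atypical member that binds such sites alone, without a DP partner, and acts as a repressor that holds back endoreduplication, the copying of DNA without division.

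Reads came from the 3’ ends of polyadenylated transcripts, primed with oligo(dT), and cDNA of 500 to 650 bp was used after 17 PCR cycles. The counts summed to 193454 for bud and 157245 for wt. Shares are given per 10000 of these reads, intervals are exact 95% binomial intervals, and intervals and floors account for the counting of reads alone, as reads amplified from 1 molecule are not independent of each other. For a count of 0, a floor of 3 reads was used, equal to 0.155 per 10000 for bud and 0.191 for wt. The deposited columns carry only library numbers. Library 1 was taken as bud because the read numbers of all 9 contigs in the study's list of candidate genes stand in this order, contig08253 and CvPI among them, and the text of the paper also places the CvPI reads in the wild type library. The longer list heads the libraries the opposite way, and under that heading every direction given here is reversed. That longer list is also the only source of the histone annotations. With its columns in their printed order, its read numbers matched the deposited ones for 2 of its 195 contigs and for 0 of the 7. The exchanged order was not compared, so this check cannot tell exchanged columns from other numbers. Only the names of that list were used. The link between name and contig number was checked for contig08253 among the 7 and rests on the list for the others, as it does for most of the further contigs named here by annotation.

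The members did not go one way. Of the 7 contigs, 5 had a higher share in the wt library (H3, histone 2, H1, the H4-like contig01225 and E2FE-like) and 2 had a higher share in the bud library, both annotated as H4. All 7 passed the exact Audic-Claverie test with Bonferroni correction at 0.01, beside 2.89% of the 11900 contigs tested. The background was 1.48% for contigs higher in wt and 1.41% for contigs higher in bud. Since the study chose the contigs with this same test, nothing follows from the member count. The median log2 ratio of wt over bud was 3.88 for the 7 contigs, which is the value of E2FE-like. It was -0.02 over all contigs tested and -0.22 over those with at least 30 reads. The choice of contigs fixes this gap.

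**Figure D1:**
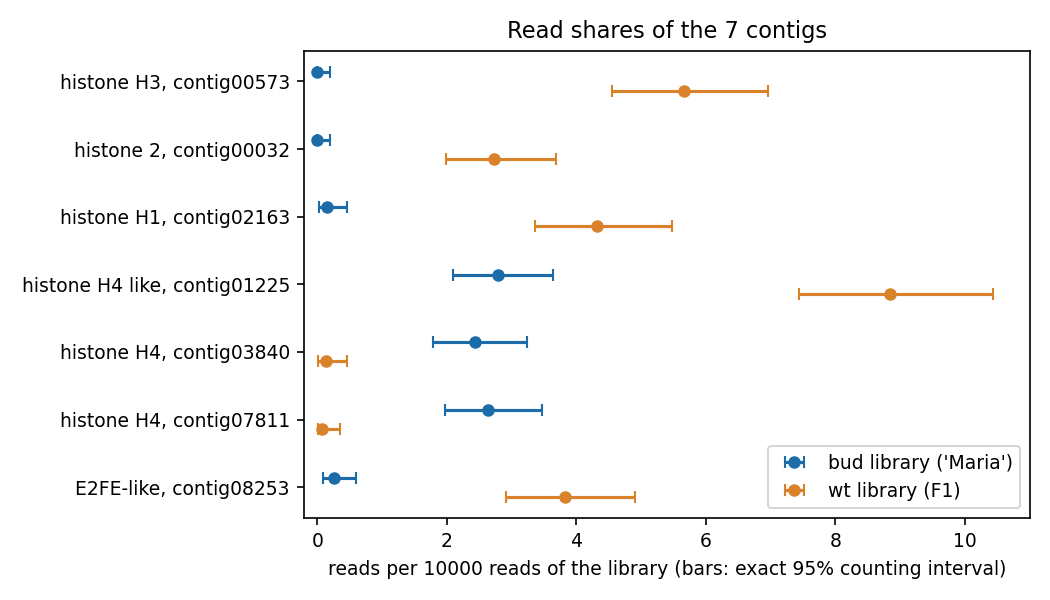
Reads per 10000 reads of a library (x axis) for each of the 7 contigs (y axis), in the bud library and the wt library; points are the measured shares and bars the exact 95% counting intervals, with 1 library per flower type. H3, histone 2, H1, the H4-like contig01225 and E2FE-like lie farther right in wt, and the H4 contigs contig03840 and contig07811 in bud.

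Histone H3 (contig00573), a core histone whose tail carries many of the marks of active and silent chromatin, had 0 bud reads and 89 wt reads. Its wt share was 5.66 per 10000 (95% interval 4.55 to 6.96), and the exact interval of the bud share reached up to 0.191. At the floor of 3 bud reads contig00573 was at least 36.5-fold higher in wt, which takes the wt reads as exact. With the counting error of both libraries the lower bound of the ratio was 29.1-fold. With the reads of the contigs 1 number before and after added, 135 bud and 253 wt reads gave a ratio of 2.31 (1.86 to 2.86). The contigs added in this and the later neighbour sums carry no annotation here. Such a sum is therefore not another value for the gene of the member. By read number contig00573 stood at place 189 of the 12058 contigs in the wt library, and it was among the 557 contigs without any read in the bud library. Among those 557 contigs it had the 17th highest wt count.

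The contig annotated as histone 2 (contig00032) does not say whether H2A or H2B is meant. It had 0 bud reads and 43 wt reads, a wt share of 2.73 per 10000 (1.98 to 3.68). The difference was at least 17.6-fold at the floor, with a lower bound of 13.7-fold by the exact interval. With its neighbours added, 65 and 105 reads gave a ratio of 1.99 (1.44 to 2.75). The contigs of H3 and histone 2 thus shared the same pattern, with reads in wt and none in bud. Each value is that of a single contig. Other contigs of H3 or histone 2 would carry no annotation here, and a split of reads of related genes over contigs was not tested. The values are therefore not those of all H3 or histone 2 transcripts. Nor does the depth allow these transcripts to be called absent from the bud bloomer.

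Histone H1 (contig02163), the linker histone, was seen in both libraries. It had 3 reads in bud (0.155 per 10000, 0.0320 to 0.453) and 68 in wt (4.32 per 10000, 3.36 to 5.48). The ratio was 27.9 in favour of wt, with an interval of 9.15 to 138.6 that reflects the 3 bud reads. With neighbours added it was 12.5 (7.20 to 23.4). Summed over H3, histone 2 and H1, the bud library held 3 reads and the wt library 200.

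Among the histone contigs that the study listed, only H4 had several, and these were split between the libraries. The H4-like contig01225 had 54 reads in bud (2.79 per 10000, 2.097 to 3.64) and 139 in wt (8.84 per 10000, 7.43 to 10.4), 3.17 times more in wt (2.30 to 4.42). It had more reads than any other of the 7 contigs, and its ratio was the smallest of them. Contig03840 had 47 reads in bud (2.43 per 10000, 1.79 to 3.23) and 2 in wt (0.127 per 10000, 0.0154 to 0.459), 19.1 times more in bud (5.002 to 162). Contig07811 had 51 reads in bud (2.64 per 10000, 1.96 to 3.47) and 1 in wt (0.0636 per 10000, 0.00161 to 0.354), a ratio of 41.5 in favour of bud (7.11 to 1669). The last ratios rest on 2 wt reads and 1 wt read, as their wide intervals show. With neighbours added, contig03840 came to 159 bud and 112 wt reads, 1.15 times more in bud with an interval of 0.900 to 1.48 that holds 1. Most of these reads came from contig03839, at 101 bud and 102 wt reads, which is not known to be a histone. The same sum for contig07811 was 70 and 10 reads, 5.69 times more in bud (2.92 to 12.4).

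With all reads counted as H4, the opposite directions nearly cancelled. The 3 contigs had 152 reads in bud (7.86 per 10000, 6.66 to 9.21) and 142 in wt (9.03 per 10000, 7.61 to 10.6), a ratio of wt over bud of 1.15 with an interval of 0.908 to 1.45. The libraries differed in which contig held these reads. In bud the reads were spread over all 3 contigs, with 35.5% on contig01225, 30.9% on contig03840 and 33.6% on contig07811. In wt 97.9% (93.95 to 99.6) lay on contig01225, 1.41% on contig03840 and 0.704% on contig07811. H4 is encoded by several near-identical genes in plants, and the mapping could have split reads of 1 gene over contigs or joined those of several. No contig sequence was used here, so this was not tested, and the value of a single H4 contig is uncertain for this reason. The sum depends on the library totals. With the reads in contigs of the authors' separate assemblies as totals the ratio was 1.43 (1.13 to 1.81), and with their assembled reads 1.27 (1.005 to 1.61), intervals that lie above 1.

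**Figure D2:**
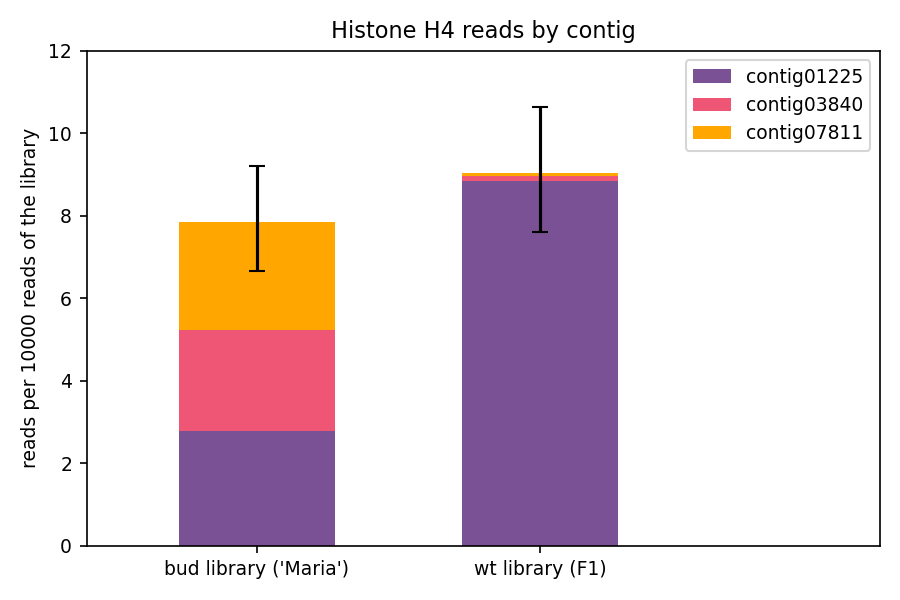
Reads per 10000 reads of a library (y axis) on the 3 H4 contigs, stacked, in the bud library and the wt library; the black bars are the exact 95% counting intervals of the sum, with 1 library per flower type. The sums of 7.86 and 9.03 have overlapping intervals, while contig03840 and contig07811 are visible almost only in bud.

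The 6 histone contigs together had 155 reads in bud (8.01 per 10000, 6.80 to 9.38) and 342 in wt (21.7 per 10000, 19.5 to 24.2), 2.71 times more in wt (2.24 to 3.30). Without H1, the core histones had 152 and 274 reads, a ratio of 2.22 (1.81 to 2.72). In the bud library nearly all histone reads were H4, 152 of 155, whereas in the wt library H3 made up 26.02% of the histone reads (21.5 to 31.0), H1 19.9% (15.8 to 24.5) and histone 2 12.6% (9.25 to 16.6). The excess of histone reads in wt thus lay in H3, H1, histone 2 and contig01225. These sums hold only the histone contigs the study listed, because other histone contigs of the assembly carry no annotation here, and they are not the shares of all histone transcripts. The wt flowers had stamens and petals and the bud flowers did not, and the libraries also differed in genotype, ‘Maria’ against F1. Genotype, a different mix of organs, fewer cells of a kind and less RNA per cell cannot be told apart in whole flowers.

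The E2FE-like factor (contig08253) had 5 bud reads (0.258 per 10000, 0.0839 to 0.603) and 60 wt reads (3.82 per 10000, 2.91 to 4.91). It was 14.8 times higher in wt, with an interval of 5.99 to 47.1. With its neighbours added, which carry no annotation here, the ratio was 5.82 (3.30 to 10.9). The direction of E2FE-like was that of H3, histone 2, H1 and the H4-like contig01225, and opposite to that of contig03840 and contig07811. By read number E2FE-like stood at place 344 in wt and 7425 in bud.

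Among the 140 annotated contigs with at least 30 reads and none at 0 in either library, the nearest to E2FE-like in log2 ratio of wt over bud (3.88) were an AWPM-19-like family protein (contig03361, 3.87, with 7 bud and 83 wt reads) and a 3-ketoacyl-synthase (contig01283, 3.80, with 3 and 34 reads). Nearest to the H4-like contig01225 (1.66) were a GAGA-binding transcriptional activator (contig03248) and a mitochondrial ATP synthase subunit (contig00812), both at 1.63. Nearest to the H4 contig07811 (-5.37) were a fructose-bisphosphate aldolase (contig01255, -5.43) and a 40S ribosomal protein S29 (contig08472, -5.46). With 2 libraries, likeness is only a similar ratio.

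**Figure D3:**
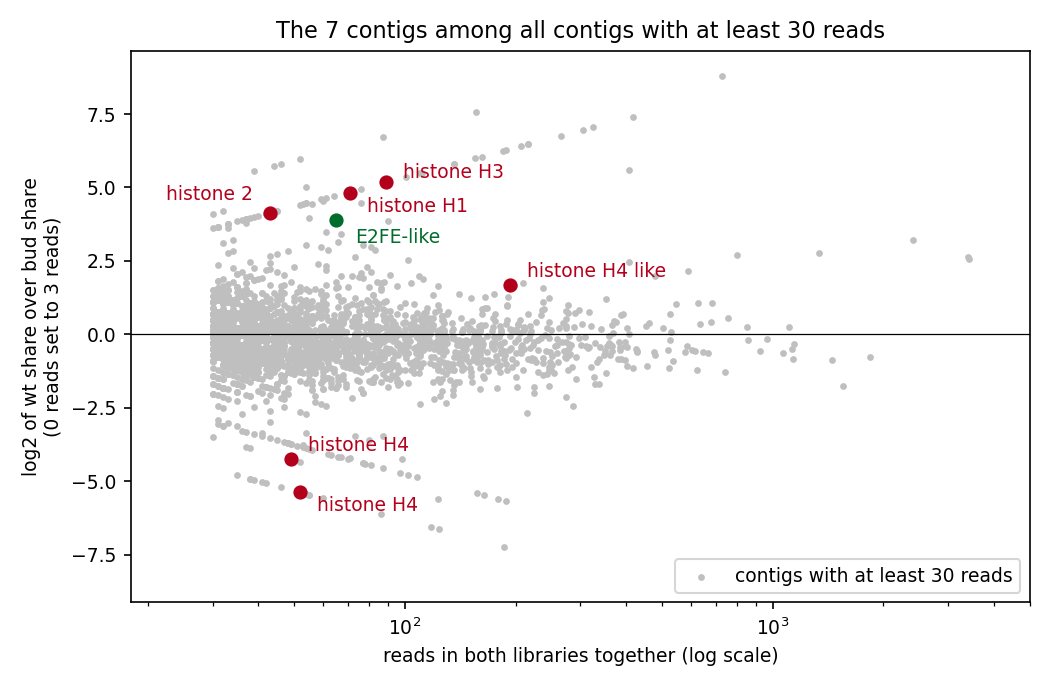
Log2 ratio of the wt share over the bud share (y axis, 0 reads set to 3 reads) against the reads of both libraries together (x axis, log scale) for contigs with at least 30 reads; grey points are all contigs, red points the 6 histone contigs and the green point E2FE-like. H3, histone 2, H1 and E2FE-like lie at 3.88 to 5.19, contig01225 at 1.66, and contig03840 and contig07811 at -4.26 and -5.37.

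The place of the members in the whole table describes the choice of contigs and is not a result, since the list was drawn from contigs that differed in these reads. Of the 2426 contigs with at least 30 reads, 1.03% had a log2 ratio as high as that of H3 or higher, 1.20% as high as H1, 1.94% as high as histone 2 and 2.43% as high as E2FE-like. For the H4-like contig01225 this was 6.06%. On the other side, 1.36% of the contigs were as low as contig03840 or lower, and 0.618% as low as contig07811. H3 and histone 2 were among 49 contigs with 0 bud reads and at least 30 wt reads, and 38 contigs had 0 wt reads and at least 30 bud reads.

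Contigs that follow each other by number can be pieces of related sequences, so the contigs up to 2 numbers away were read beside each member. Of these 28 neighbours, 4 passed the test, 2 higher in wt and 2 higher in bud, beside the background of 2.89%. Next to H1, contig02164 had 11 bud reads and 70 wt reads, 7.83 times more in wt (4.12 to 16.4) and in the direction of H1. Together this pair had 14 and 138 reads. Next to H3, contig00572 had 102 bud reads and 132 wt reads, while contig00575 had 32 bud reads and 0 wt reads, the mirror image of H3. Next to histone 2, contig00034 had 0 and 22 reads, and contig00031, at 32 and 47, and contig00033, at 33 and 15, had reads of both libraries. Next to the H4 contig03840, contig03839 had 101 bud and 102 wt reads. The neighbours of contig01225 and contig07811 had at most 15 reads in either library, and contig08255, 2 numbers after E2FE-like and annotated as uncharacterized, had 48 bud and 6 wt reads. Only 1 of the 28 neighbours, contig08255, carries an annotation here, since names came from the study's list alone. It is therefore not known whether other neighbours are histones. Whether any of them belongs to the same transcript as a member was not tested.

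**Figure D4:**
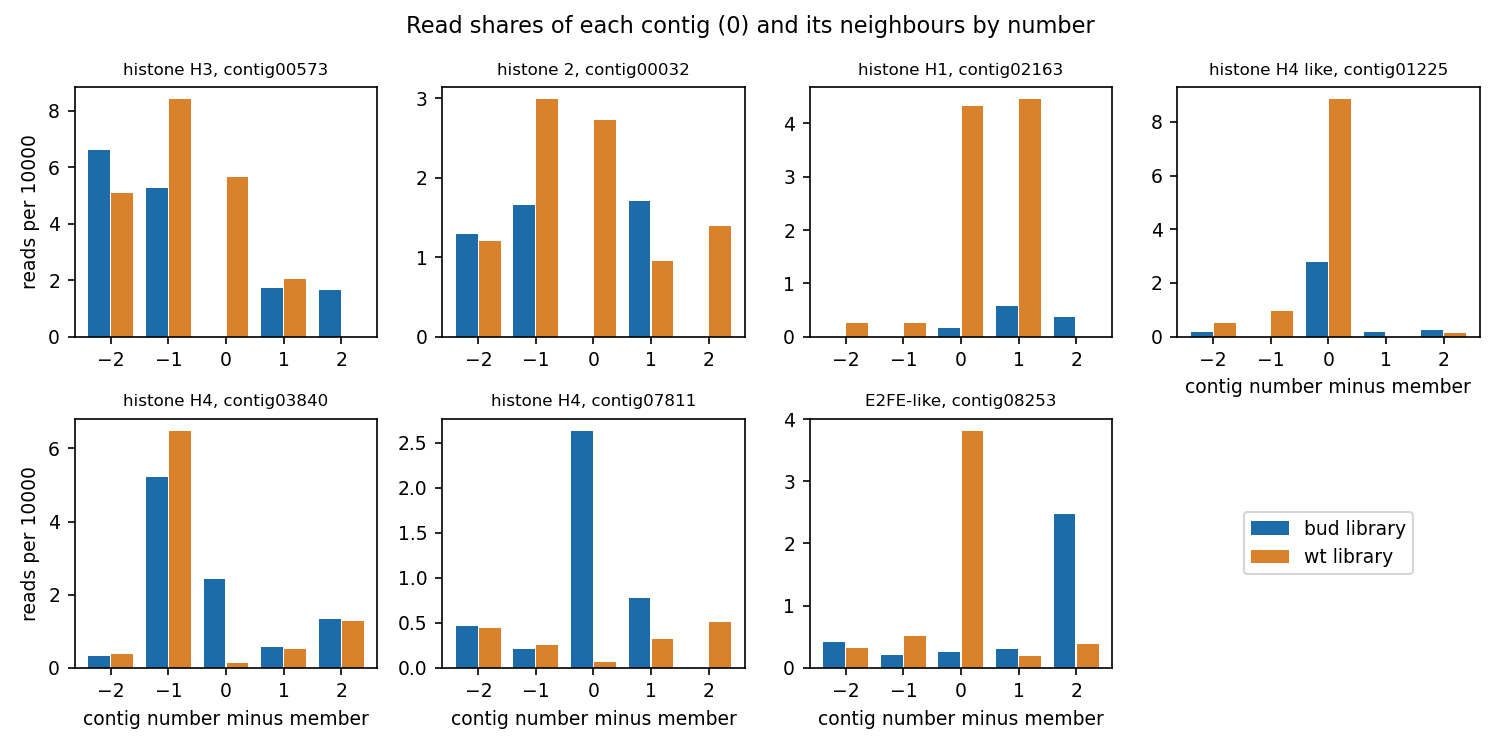
Reads per 10000 reads of a library (y axis, starting at 0, own scale per panel) for each of the 7 contigs (position 0) and the contigs up to 2 numbers before and after it (x axis), in the bud library and the wt library, without error bars. Beside H1 the next contig is also high in wt, at 4.45 against 0.569 per 10000, while beside H3 and contig03840 the contig before has reads of both libraries.

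Other contigs tied to chromosomes and cell division were read from a short list made from the study's annotations, 4 contigs in all. Of these, 2 passed the test higher in wt, beside a background of 1.48%, and 1 higher in bud, beside 1.41%. A structural maintenance of chromosomes 1 contig (contig10308), a subunit of the cohesin ring that holds sister chromatids together, had 23 bud reads and 63 wt reads, 3.37 times more in wt (2.06 to 5.69). A kinesin-like contig named after KIN12B (contig11379) had 5 bud reads and 1 wt read, at which depth no difference was detectable. In Arabidopsis, KIN12B is a motor of the phragmoplast that builds the new cell wall. The study lists contig11379 as different, but it did not pass the test here. Its link between name and contig number was not checked and is uncertain. Of the 195 annotated contigs of that list, 175 passed the test here. Dihydrofolate reductase, which supplies folate for the synthesis of thymidylate, was split as H4 was. Contig06170 had 32 bud reads and 0 wt reads, at least 8.67-fold higher in bud at the floor and 6.65-fold by the lower bound of the exact interval, and contig05943 had 17 and 55, 3.98 times more in wt (2.28 to 7.32). Their sum of 49 bud and 55 wt reads gave a ratio of 1.38 (0.922 to 2.07). These contigs, too, were chosen by the study on these libraries.

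The reference genes that the study picked for its real-time PCR were also read, as contigs not chosen for a difference in reads. Another of these genes, Cv18S rRNA, is given in the paper without a contig and was not read. CvActin (contig03212) had 44 bud reads and 30 wt reads, a ratio of wt over bud of 0.839 (0.509 to 1.36). CvTSa (contig04235) had 17 and 8 reads, CvTATA binding (contig05402) 4 and 8, and CvDisease resistance protein (contig02315) 10 and 2. The interval of each ratio held 1. With 12 reads each, CvTATA binding (0.659 to 11.2) and CvDisease resistance protein (0.0262 to 1.15) had wide intervals that say little. The sum of all 4 contigs was 75 and 48 reads, a ratio of 0.787 (0.536 to 1.15). The reference genes were chosen for stable expression and the histone contigs for their difference, so no comparison between the groups was drawn. Of the genes that specify petals and stamens, CvPI (contig07420) had 0 bud reads and 20 wt reads and CvAP3 (contig09453) had 15 and 21.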

How the data were processed

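Young flowers of 1 bud bloomer and 1 wild type genotype gave 1 cDNA library each, sequenced by pyrosequencing. The authors filtered out organelle, endophyte and ribosomal RNA sequences (SeqClean), built a common backbone from the remaining reads of both libraries (Newbler 2.5.3, cDNA option) and mapped each library back onto this backbone. The deposited counts, whole and not normalized, give the mapped reads by contig. The other 2 deposited columns of library values (shares to 1 decimal) and the authors' p column were not used. After 3 repeated entries were removed, shares were taken of the summed counts, 193454 (bud) and 157245 (wt).

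Exact (Clopper-Pearson) intervals of ratios came from the wt share of the reads of both libraries. The Audic-Claverie test (two-sided, conditional on bud, Bonferroni, adjusted p under 0.01, more than 2 reads) was run on all contigs, as a background, and tested on simulated data. It compares 2 libraries, not flower types. Named were the members, their neighbours within 2 numbers, a cell division list, the genes of the real-time PCR and, for 3 members, the 2 annotated contigs of nearest ratio. Members and lists were chosen with earlier results of these data known. Alternatives were other library totals (TMM of edgeR, size factors of DESeq2, totals of the separate assemblies, totals without the 10 largest contigs or with repeated entries), the opposite library order, neighbour sums, sums without 1 contig, and other settings of the background test. Software versions were edgeR 4.0.16 and DESeq2 1.42.0 (R 4.3.3) and scipy 1.17.1 (Python 3.11.15).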

Additional observations from a re-analysis of the deposited data

How the results depend on the processing

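Values here are log2 ratios of wt over bud. Each of 6 other library totals shifted all ratios by a common amount, so the ratios are not separate checks. Of the 54 ratios (the 7 contigs, the H4 sum and the sum of 6 histones), 53 stayed within their counting intervals. For contig00032 and contig00573 these intervals have no upper bound. The exception was the sum of 6 histones, 1.76 with the reads in contigs of the separate assemblies against 1.44. The H4 sum rose to 0.52 with that total and to 0.35 with the assembled reads of those assemblies. Under both of these totals the interval of the H4 sum lay above a ratio of 1. With the library order of the longer list, contig00032 was at -4.14, contig00573 at -5.19, contig01225 at -1.66, contig02163 at -4.80, contig03840 at 4.26, contig07811 at 5.37, the E2FE ratio at -3.88, the H4 sum at -0.20 and the sum of 6 histones at -1.44, with 2 contigs higher in wt and 5 higher in bud. The contigs 1 number before and after a member carry no annotation here. With their reads added, the E2FE ratio was 2.54 and the sum of 6 histones 0.93. Contig03840 then came to -0.21, contig00032 to 0.99, contig00573 to 1.21 and contig07811 to -2.51. The interval of contig03840 with its neighbours held a ratio of 1. The H4 sum rests on its contigs: it was -4.73 without contig01225, 0.71 without contig03840 and 0.78 without contig07811. The sum of 6 histones was 1.01 without contig00573, 1.15 without contig02163, 1.95 without contig03840 and 2.01 without contig07811. With Benjamini-Hochberg adjustment 888 contigs of the whole table passed, against 344, and 336 to 352 under the other settings of that test. No paired analysis was possible because each flower type has 1 library.

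With 1 library per flower type, no value here separates genotype, plants, organs or library preparation from the flower type. Contigs with few reads in one library have wide ratios, and a bound set at the floor of 3 reads takes the reads on the other side as exact.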

Other observations

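The opposite directions of the H4 contigs had counterparts among other annotations, a count made after the values were seen that rests on names not checked against the contigs. Of 15 annotations that 2 or more contigs past the test share word for word, 8 had contigs higher in each library. Among all 175 annotated contigs past the test, 77 were higher in wt and 98 in bud. Contigs paired at random would therefore also often lie on opposite sides, and the count is not read as a tendency of shared names to split. Besides dihydrofolate reductase-like, a flavonol synthase had 43 bud reads and 0 wt reads on contig01426 and 18 and 57 on contig01427, and a 60S ribosomal protein L21 had 77 and 0 reads on contig01726 and 0 and 31 on contig01727. Both contigs annotated exactly as histone H4, contig03840 and contig07811, were higher in bud, and the H4-like contig01225, with another wording, was not part of this count.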
